A study of Danio rerio with 9 samples.

Results

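The histone variant gene h2ax, earlier named h2afx, was followed across the eyes of zebrafish embryos raised with and without ethanol. The gene (NCBI gene 394048) was found by its current symbol and was measured by 1 probe set. That probe set is 1 of 15502 that are not controls and was among the 9301 bright enough to be tested, which stand for 6111 named genes. The gene was chosen because it had the largest decrease shared by the ethanol arrays, so its ethanol difference is given as a description and was not tested. Its change with age played no part in the choice and was tested.

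Histone H2AX is a variant of the core histone H2A that is placed in nucleosomes throughout the genome. When a DNA double-strand break forms, the kinases ATM, ATR and DNA-PK phosphorylate a serine in its tail, and the phosphorylated form (gamma-H2AX) gathers repair proteins around the break. A second mark, on the last tyrosine of the tail, is set by the kinase WSTF and removed by EYA phosphatases, a family named for its role in eye development. Human H2AX differs from the replication-dependent histones in that it yields both a short transcript ending in a stem-loop and a longer polyadenylated one. The sources used here do not say which form of the zebrafish transcript the probe set reads.

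Total RNA from dissected embryonic eyes was hybridized to Affymetrix arrays, with 1 array for each of 9 conditions. Ethanol eyes were taken at 27, 30, 36 and 48 hours post fertilization (hpf), control eyes at the same 4 stages, and untreated eyes (the pretreatment sample) at 24 hpf, all with growth at 28.5 degrees C. The sources used here give no strain, ethanol dose, timing of exposure or number of embryos per sample. Groups follow the sample titles, and the treatment characteristic contradicts the titles for 3 arrays: it marks the 30 hpf ethanol and 36 hpf ethanol arrays as untreated and the 36 hpf control array as ethanol.

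Signals are MAS5 values, a brightness per probe set on a linear scale, scaled alike on all 9 arrays. Precision is limited by their number. No stage was repeated within a group, so p-values rest on the spread between stages or around a fitted line, part of which may be technical. Of the list of retina, lens and pigment markers, 21 of the 22 genes with a named probe set were above the filter. The retinal regulator pax6a gave 824 to 1121 in ethanol arrays and 921 to 1053 in the 5 arrays without ethanol, and the lens crystallin crybb1 gave 2717 to 4541 and 2240 to 4353. The pigment enzyme gene tyr was below the filter. The listed markers were not all alike between ethanol and control eyes. Mean ethanol minus control differences of the 21 genes, in log2(signal + 5), ran from -0.32 to 0.50. Of these means, 10 were below 0 and 11 above. The median difference was -0.02, -0.31, 0.21 and 0.13 at 27, 30, 36 and 48 hpf.

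The h2ax signal was lower in ethanol eyes at every stage. At 27 hpf it was 188 in ethanol eyes against 439 in control eyes. At 30 hpf it was 143 in ethanol eyes against 390 in control eyes, and at 36 hpf 141 in ethanol eyes against 313 in control eyes. At 48 hpf it was 173 in ethanol eyes against 380 in control eyes. The untreated eyes at 24 hpf, before the first paired stage, gave 326. All 4 ethanol arrays therefore lay below all 5 arrays without ethanol, and the highest ethanol value (27 hpf) was 126 signal units under the lowest value without ethanol (36 hpf control).

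**Figure D1:**
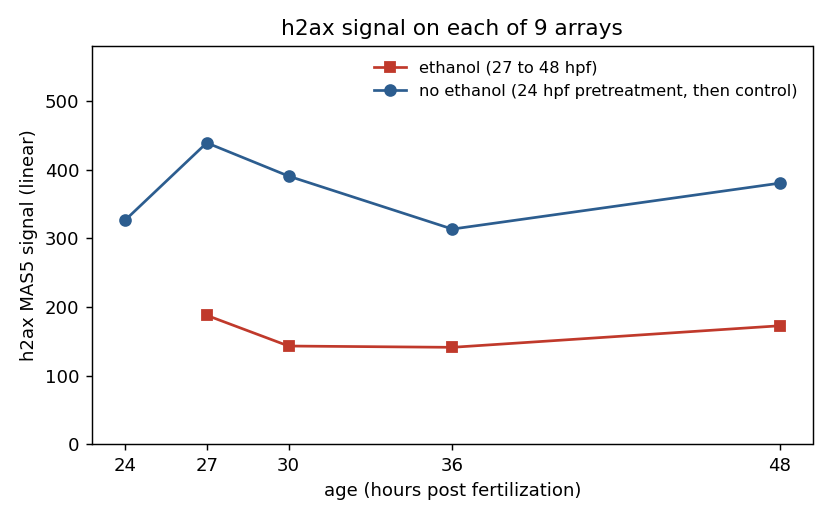
Linear MAS5 signal of h2ax (vertical axis) against age in hpf (horizontal axis), with red squares for the 4 ethanol arrays and blue circles for the 5 arrays without ethanol, 1 array per point. The ethanol points lie between 141 and 188 and those without ethanol between 313 and 439, so the lines stay apart at every age.

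On the scale of log2(signal + 5), the ethanol minus control difference of h2ax was -1.20, -1.42, -1.12 and -1.12 at 27, 30, 36 and 48 hpf, a mean of -1.22 ± 0.14 (SD over 4 stages). Ethanol eyes thus held 42.8% of the control signal at the first paired stage and between 36.6% and 45.4% at the later ones. The mean signal was 161 ± 22.8 in ethanol eyes and 381 ± 51.7 in control eyes (SD, 4 stages each), and the coefficient of variation over stages was 14.2% and 13.6%. At the 27 and 48 hpf stages, where titles and treatment characteristic give the same groups, the mean difference was -1.16. Grouped by the treatment characteristic instead, the fitted mean was -0.40, and the 3 arrays it marks as ethanol ranged from 173 to 313 against 141 to 439 in the other 6, so the groups overlapped. In whole-eye RNA, fewer cells that use the gene and less of its RNA per cell cannot be told apart.

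Ordered by level, the arrays ran from 27 hpf control through 30 hpf control, 48 hpf control, 24 hpf pretreatment and 36 hpf control to 27 hpf ethanol, 48 hpf ethanol, 30 hpf ethanol and 36 hpf ethanol. The 500 probe sets nearest to h2ax in mean level had a median residual SD of 0.17 in the fit with stage as a block, which gives a difference between 2 arrays an SD of 0.24. Between neighbours within the ethanol arrays or within the arrays without ethanol, only the step between 48 and 30 hpf ethanol (0.26) exceeded that SD, by 1.07 times. Neighbours in a sorted order lie close by construction, so these steps do not show that the arrays within a set were alike. The full range was 0.48 over the arrays without ethanol and 0.40 over the ethanol arrays, both above that SD. The step between the sets is the difference the gene was chosen for, and it was not set against the spread.

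Among 9301 probe sets, its rank from the lowest difference was 9, 5, 10 and 126 at 27, 30, 36 and 48 hpf. A decrease of at least 2-fold was seen in 0.323%, 0.344%, 0.247% and 2.15% of probe sets at these stages in turn, so many more probe sets stood at that size at 48 hpf. Counted in log2(signal + 5), as here, at least 2-fold lower at all 4 stages held for 1 probe set (0.0108%), which was h2ax. At least 2-fold higher at all 4 stages held for 12 (0.129%). Since the gene was picked for its decrease, these ranks describe it and support nothing further.

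Every ethanol array lay below all 5 arrays without ethanol for 210 probe sets (2.26%), and h2ax had the widest gap of them at 0.72 on the log2 scale. The next gaps were 0.66 for a probe set with no single gene name, 0.43 for msl1b, a scaffold protein of a histone acetyltransferase complex, and 0.40 for brd2a, a bromodomain protein that binds acetylated histones. These genes were named after their values were seen. The gene next to h2ax in the order of called decreases was pdcd2l, whose relatives escort a small-subunit ribosomal protein, with a mean of -1.17. Its signals were 72.1, 49.5, 29.0 and 17.8 in ethanol eyes at 27, 30, 36 and 48 hpf, against 180, 109, 58.8 and 56.4 in control eyes. As plain signals these were also more than 2-fold lower at each stage, but in log2(signal + 5) the 36 hpf difference was -0.91. Unlike h2ax, its ethanol and control ranges overlapped, and its level fell with age by 1.64 over 24 hours (SE 0.28, limma, adjusted p = 9.45e-04).

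**Figure D2:**
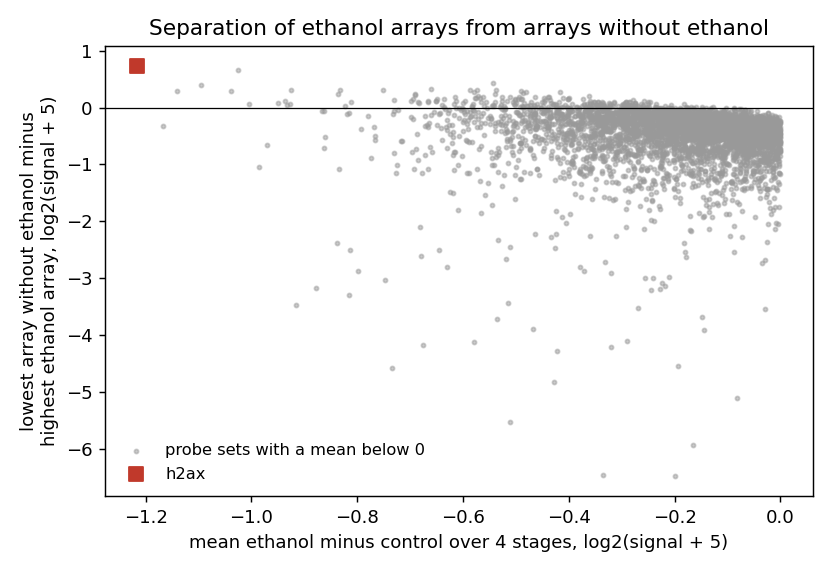
Each grey point is a probe set whose mean ethanol minus control difference (horizontal axis, log2 of signal + 5) was below 0, and the vertical axis is the lowest array without ethanol minus the highest ethanol array on the same scale. Points above the line at 0 have no overlap, and h2ax (red square) sits at -1.22 and 0.72, the far upper left.

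Whether h2ax changed with age was asked with limma over all 9 arrays, with ethanol as a term. The fitted change from 24 to 48 hpf was -0.00 on the log2 scale (SE 0.20, 95% interval -0.44 to 0.44, adjusted p = 0.999), so no change was called, and the interval leaves room for a change of up to 0.44 either way. On the 5 arrays without ethanol alone, the change was -0.01 (SE 0.27, 95% interval -0.62 to 0.59, limma, adjusted p = 0.978). The single arrays in between varied, and whether the course departed from a line was not tested. Relative to the 24 hpf array, ethanol eyes stood at -0.78, -1.16, -1.18 and -0.90 at 27, 30, 36 and 48 hpf. Control eyes stood at 0.42, 0.26, -0.06 and 0.22 relative to the same array. In both sets 27 hpf was the highest stage and 36 hpf the lowest, though in ethanol eyes 30 and 36 hpf were nearly equal. Without the 48 hpf arrays the fitted change over 24 hours was -0.55 (limma, adjusted p = 0.43), the lowest of the leave-one-out values, so the level fit rests in part on that stage.

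A change with age of at least 2-fold was called in 7.39% of probe sets downward and 9.07% upward. Most core histones are made in S phase, when DNA is copied. Of 57 DNA replication genes above the filter, 38 fell with age and none rose, with a median slope of -1.37 over 24 hours against -0.04 over all probe sets. The helicase subunits mcm2 (-1.70 ± 0.22, SE, adjusted p = 1.46e-04) and mcm5 (-1.54 ± 0.19, adjusted p = 1.03e-04) and the origin recognition subunit orc4 (-2.09 ± 0.19, adjusted p = 2.32e-05) were among those that fell in limma. The sliding clamp gene pcna, named for its role after its value was seen, stood at -0.39 ± 0.16 (limma, adjusted p = 0.0764). Of 48 mitosis genes, 2 fell with age and none rose, with a median slope of -0.22. The 2 were cdca7a, a cell division cycle-associated gene (-1.55 ± 0.22), and mybl2b, a transcription factor of the late cell cycle (-1.49 ± 0.22).

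**Figure D3:**
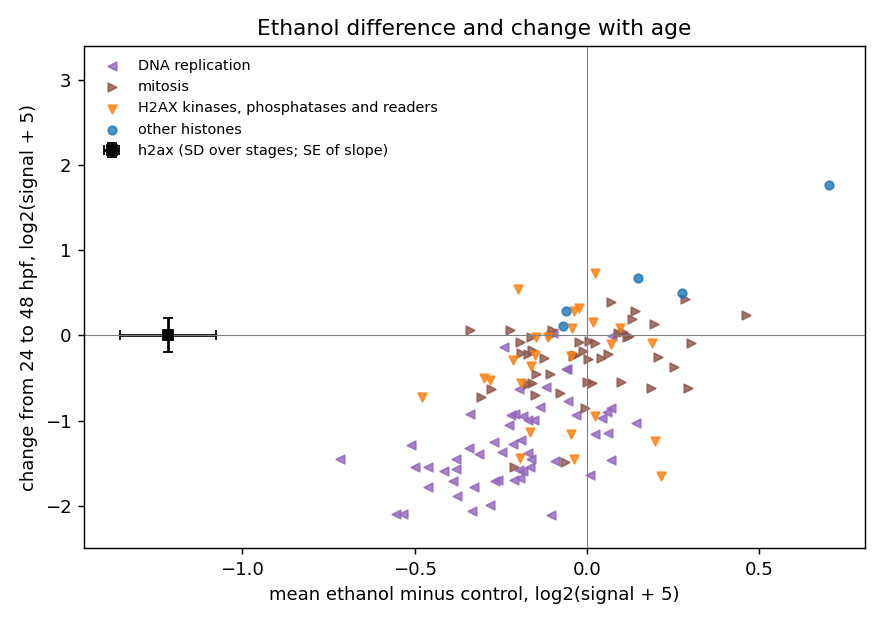
Mean ethanol minus control difference (horizontal axis) against the change from 24 to 48 hpf (vertical axis), both in log2(signal + 5), for genes of 4 lists and for h2ax (black square, with the SD over 4 stages across and the SE of the slope upward). DNA replication genes spread down to about -2.1 in slope, with ethanol differences from -0.72 to 0.14. The h2ax square lies at -1.22 across and -0.00 in slope.

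The remaining comparisons with ethanol concern genes whose products act with H2AX. In the fit with stage as a block, 0.624% of all probe sets were called lower and 1.62% higher (limma, adjusted p under 0.05). That balance depends on the scaling, with 151 higher and 58 lower as deposited, 150 and 131 after median centring, and 19 and 18 after quantile normalization. Over 7 lists of histones, H2AX enzymes and readers, repair, histone chaperones, replication, mitosis and p53 genes, 235 genes were above the filter. Of these, 1 was called lower (0.624% of all probe sets were) and 3 were called higher, and none had a mean decrease of 2-fold. The lowest mean was -0.72. Every ethanol array lay below every array without ethanol for 3 of the 235 genes, namely ppp4ca, lig3 and cycsb (2.26% of all probe sets did). The median difference of all probe sets was 0.04, and 44.4% of them were below 0.

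Few other histone genes had a named probe set, and none of those above the filter was called lower (0.624% of all probe sets were). The variant H2A.Z gene h2az2b gave 1623 to 1835 in ethanol arrays and 1679 to 2058 in arrays without ethanol, a mean difference of -0.07 ± 0.12 (SE, limma, adjusted p = 0.764). The macroH2A gene macroh2a2, whose product is linked to silent chromatin, gave 515 to 776 in ethanol arrays and 417 to 586 in arrays without ethanol (0.28 ± 0.13, limma, adjusted p = 0.227). The histone H3.3 gene h3f3d, named after its value was seen, had a mean of -0.06 and the histone gene hist2h2l one of 0.15. A further histone gene, histh1l1, was above the filter but outside the list, and was also named after its value was seen. It gave 703 to 1727 in ethanol arrays and 750 to 1074 in arrays without ethanol, a mean difference of 0.12.

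The linker histone h1-10 was the 1 member of 5 in the histone list that was called, and it rose (1.62% of all probe sets were called higher). Its signals were 210, 320, 479 and 885 in ethanol eyes at 27, 30, 36 and 48 hpf, against 155, 199, 308 and 413 in control eyes, so it was higher at each stage. The mean difference was 0.70 ± 0.14 (SE, limma, adjusted p = 0.047). It also rose with age, by 1.77 ± 0.21 (limma). The related genes h2ax1, h2ax2 and hist1h2a11 (older symbol h2ax3) appear in the gene tables, and no probe set used here carries their names. Whether the h2ax probe set also reads them was not tested.

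Enzymes that set or remove marks on H2AX, and the proteins that read them, showed no called ethanol difference. Over all probe sets 0.624% were called lower and 1.62% higher, so a list this short may well hold none. Of 39 genes in the list, 26 had a named probe set, and the kinase genes atm and atr were not among these 26. None of the 26 passed the test, 18 were below 0 (44.4% of all probe sets were) and the median was -0.05. The DNA-PK catalytic subunit gene prkdc stood at 0.02 ± 0.15, and baz1b, which encodes WSTF, at 0.19 ± 0.19. The phosphatase gene eya1 stood at 0.02 ± 0.15, and the PP2A catalytic subunit gene ppp2cb at -0.16 ± 0.12. These 4 genes were named for their roles after their values were seen, and members further from 0 follow. The ATPase genes ruvbl1 and ruvbl2, subunits of chromatin remodelling complexes, stood at -0.30 ± 0.12 (limma, adjusted p = 0.182, lower at 4 stages) and -0.28 ± 0.19 (limma, adjusted p = 0.399, lower at 3 stages). In all, 7 of the 26 were lower at all 4 stages (14.4% of all probe sets were), and none was higher at all 4. The largest mean in the list was that of ppp4ca, the catalytic subunit of a phosphatase that acts on gamma-H2AX (-0.48 ± 0.21, limma, adjusted p = 0.206). Its signals were 314, 315, 300 and 124 in ethanol eyes at 27, 30, 36 and 48 hpf, against 351, 329, 386 and 320 in control eyes, so most of its difference was at 48 hpf.

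Among readers, several fell with age while their ethanol difference was not called. They were mdc1, the adaptor that binds the phosphorylated tail (slope -1.43 ± 0.27), tp53bp1 (-1.25 ± 0.18), which marks chromatin around breaks, and the ubiquitin ligase rnf168 (-1.16 ± 0.16). The break sensors mre11a (-1.46 ± 0.20) and nbn (-1.13 ± 0.18) and mcph1 (-1.65 ± 0.18), which encodes microcephalin, completed the 6 of 26 called lower with age (7.39% of all probe sets were), and none was called higher (9.07%). The ethanol means of these 6 ran from -0.20 for mdc1 to 0.22 for mcph1.

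Checkpoint and repair genes likewise gave no ethanol call among 38 measured (0.624% of all probe sets were called lower and 1.62% higher). The median was -0.08 and 25 were below 0 (44.4% of all probe sets were). The checkpoint kinase chek1 stood at -0.34 ± 0.13 (limma, adjusted p = 0.165) and chek2 at -0.29 ± 0.15 (limma, adjusted p = 0.288), both lower at all 4 stages. The end-joining gene xrcc5 stood at -0.38 and the DNA ligase gene lig3 at -0.36, while the mismatch repair gene pms1 (0.56) and the recombination gene rad51d (0.54, limma, adjusted p = 0.0669) lay above 0. With age, 21 of the 38 fell by the test (7.39% of all probe sets did) and none rose (9.07%).

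Histone chaperones hand new histones to chromatin, and none of 31 genes in that list was called with ethanol. Of all probe sets, 0.624% were called lower and 1.62% higher. The median of the list was -0.12, 23 were below 0 (44.4% of all probe sets were) and 11 were lower at all 4 stages (14.4%). The nucleosome assembly gene nap1l4a had the lowest mean, -0.67 ± 0.15 (limma, adjusted p = 0.0568). Its signals were 169, 126, 71.0 and 52.0 in ethanol eyes at 27, 30, 36 and 48 hpf, against 249, 157, 154 and 91.9 in control eyes. The nucleoplasmin-family gene npm3 stood at -0.51, chaf1b, a subunit of chromatin assembly factor 1, at -0.46, and ssrp1a, a subunit of the FACT complex, at -0.39.

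Of 57 DNA replication genes, 1 was called lower with ethanol (0.624% of all probe sets were) and none higher (1.62%). The median was -0.20, 48 were below 0 (44.4% of all probe sets were) and 9 above, and 27 were lower at all 4 stages (14.4% of all probe sets were). The called gene was tipin, which stabilizes stalled replication forks, with signals of 217, 189, 179 and 63.8 in ethanol eyes at 27, 30, 36 and 48 hpf, against 317, 328, 247 and 143 in control eyes. It fell by 0.72 (SE 0.15, limma, adjusted p = 0.0461). The origin gene orc4 stood at -0.55, gins1, a subunit of the replicative helicase, at -0.53, cdk2, the S phase kinase, at -0.51, and pcna at -0.06. The part of replicating cells in the h2ax difference was not tested.

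Mitosis genes were centred near 0 with ethanol, with a median of -0.01 and 26 of 48 below 0 (44.4% of all probe sets were). None was called (0.624% of all probe sets were called lower and 1.62% higher). The actin-binding cytokinesis gene anln stood at 0.46, the survivin gene birc5a at -0.34, the kinetochore gene spc24 at -0.31 and the centromere gene cenpk at 0.30.

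**Figure D4:**
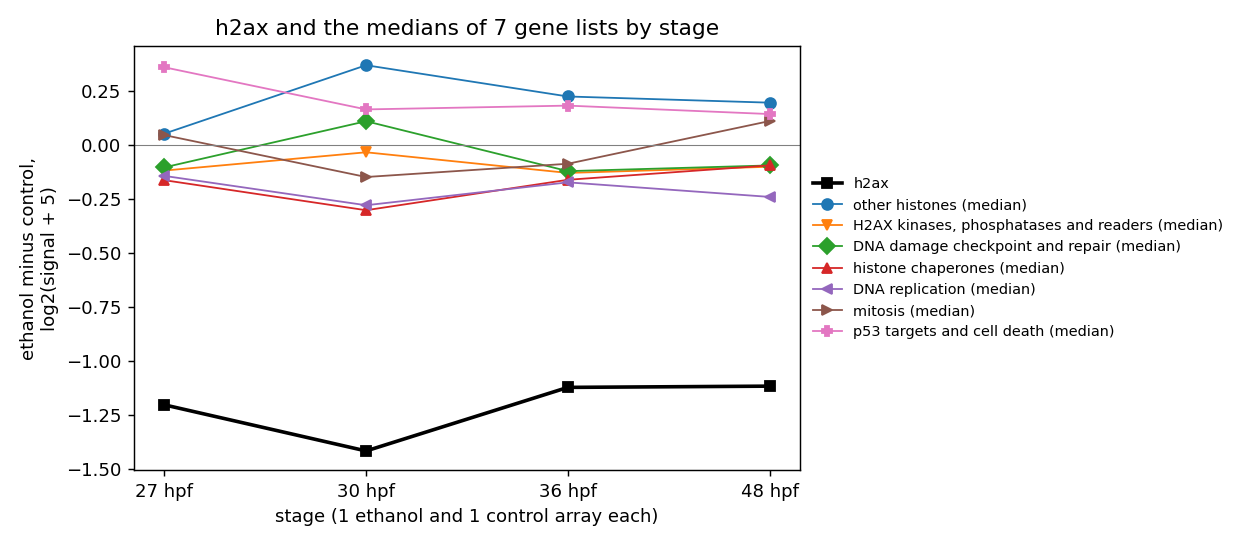
Ethanol minus control difference in log2(signal + 5) (vertical axis) at 27, 30, 36 and 48 hpf for h2ax (black squares, 1 ethanol and 1 control array per point) and for the median of each of 7 gene lists (coloured symbols). The list medians stay between -0.30 and 0.37 at all 4 stages, while h2ax stays between -1.42 and -1.12.

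On the list of p53 and cell death genes, 39 had a named probe set. Some of them, among them bbc3, pmaip1, fas and casp8, were below the filter and not tested. Of the 30 above it, 2 were called higher with ethanol (1.62% of all probe sets were) and none lower (0.624%). The median was 0.17, with 25 above 0 and 5 below (44.4% of all probe sets were below 0). The lowest was the cytochrome c gene cycsb, named after its value was seen, at -0.35 ± 0.13 (limma, adjusted p = 0.142) and lower at all 4 stages. The initiator caspase gene casp9 had signals of 63.8, 59.4, 63.8 and 75.4 in ethanol eyes at 27, 30, 36 and 48 hpf, against 24.0, 24.5, 31.9 and 59.3 in control eyes, and it rose by 0.90 ± 0.17 (SE, limma, adjusted p = 0.0423). The p53 target phlda3 rose by 0.59 ± 0.12 (limma, adjusted p = 0.0498), with all 4 stages higher. The p53 target rps27l stood at 0.94 (limma, adjusted p = 0.0546), mcl1b, of the BCL2 family, at 0.92 and mdm2, the ligase that degrades p53, at 0.81. The last 2 owed most of that to 48 hpf, with differences of 2.71 and 1.93 there.

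Marker genes of tissues beside the eye also differed between the arrays. Over all probe sets, 44.4% of the mean ethanol differences were below 0. Of 31 brain genes above the filter, 30 had a mean above 0, and their summed signal was 2963 to 5915 in ethanol arrays and 2159 to 3685 in arrays without ethanol. At 27, 30, 36 and 48 hpf that sum was 2963, 4275, 3395 and 5915 in ethanol eyes, against 3685, 2159, 2630 and 2801 in control eyes. Of 15 yolk and liver genes, all had a mean above 0, with sums of 1779 to 4673 in ethanol arrays and 674 to 3982 in arrays without ethanol. Their median difference was 0.77, 2.74, 0.15 and 0.71 at 27, 30, 36 and 48 hpf. Of 12 blood and vessel genes, 10 were above 0. Their sums were 4624 to 5736 in ethanol arrays and 3722 to 4480 in arrays without ethanol. These sums did not overlap, but bright genes weigh most in them. Only 1 of the 12 genes had every ethanol array above every array without ethanol. The share of all probe sets that did was not counted. Muscle sums were 1050 to 1810 in ethanol arrays and 637 to 4400 in arrays without ethanol, and skin sums were 8326 to 10731 and 8002 to 10623. The muscle difference reversed at the last stage. The median of the 10 muscle genes was 0.18, 0.99, 0.87 and -1.79 at 27, 30, 36 and 48 hpf. At 48 hpf the muscle sum was 1253 in ethanol eyes against 4400 in control eyes. No defining marker was listed at 0, but wnt1 and egr2b of the brain, gata1a of blood and mylpfa of muscle were below the filter. The part of these tissues in the h2ax difference was not tested.

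The genes whose pattern was most like that of h2ax were sought by Pearson correlation over 9 arrays among 5718 named genes. The ranking shares the ethanol split that chose h2ax, so it describes that split, and all 10 of the most like genes had every ethanol array below every array without ethanol (2.26% of all probe sets did). They were timm17a (r = 0.96), which encodes a subunit of the mitochondrial inner membrane translocase, afg1la, of a family of mitochondrial ATPases, samm50, of mitochondrial outer membrane assembly, ints13, of the Integrator complex, and thoc1, of mRNA export. The others were impdh1b, of guanine nucleotide synthesis, the proteasome ATPase gene psmc5, tmem33, rangrf and the tight junction gene tjp2b, the lowest at r = 0.92.

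Their ethanol differences were all smaller than that of h2ax, as they had to be, since h2ax had the lowest mean of all probe sets. The largest was that of samm50, with signals of 150 to 193 in ethanol arrays and 241 to 325 in arrays without ethanol (-0.75, limma, adjusted p = 0.0307). It was the only 1 of the 10 that was called (0.624% of all probe sets were called lower). The 10 were picked across the ethanol split, so this call supports nothing further. The most like gene, timm17a, gave 225 to 271 in ethanol arrays and 335 to 373 in arrays without ethanol. Within the 4 ethanol arrays alone, the correlations of the 10 genes with h2ax ran from -0.58 for tjp2b to 0.97 for afg1la. Over the 5 arrays without ethanol alone, the correlations of these 10 genes with h2ax ran from 0.20 for timm17a to 0.93 for thoc1. The 5 genes most like h2ax over those 5 arrays were slc25a55a, a mitochondrial carrier (r = 0.98), alg2, of N-glycan assembly, the kinase gene mapk12a, arfip1 and the phosphatase gene ptpn11a (r = 0.95). None of them was among the first 10, and their ethanol differences ran from -0.08 to 0.03. A correlation above 0.9 was reached by 21 genes over the 5 arrays and by 18 over the 9. With 5 arrays and 5718 genes searched, high values can arise among unrelated genes, and the correlations were not tested.

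**Figure D5:**
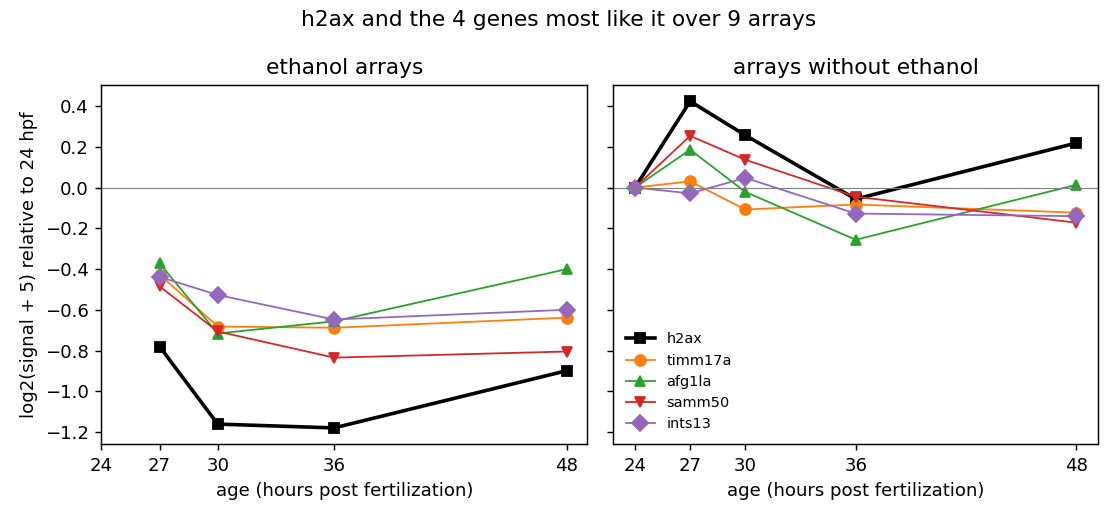
Level relative to the 24 hpf array in log2(signal + 5) (vertical axes) against age in hpf (horizontal axes) for h2ax (black squares) and the 4 genes most like it over 9 arrays, in ethanol arrays (left) and arrays without ethanol (right), 1 array per point. All 5 genes lie below 0 at each ethanol stage, with h2ax the lowest (-0.78 to -1.18), while without ethanol h2ax lies between -0.06 and 0.42.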

How the data were processed

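Per the submitters' processing notes, the authors made MAS5 signal intensities, deposited as 1 linear value per probe set and array. The sources used here give no MAS5 version. All 9 arrays shared a mean of 125 after trimming 2% at each end, so no further scaling was done. Because mismatch probes are subtracted in MAS5, low values carry more noise.

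Of 15617 probe sets, 115 controls were left out, and the upper 60% by mean log2(signal + 5) was kept (9301, mean signal above 22.7). Symbols came from the platform annotation, updated by gene identifier with RefSeq gene records of assembly GRCz12tu, and 2180 kept probe sets had no single symbol. The brightest probe set stood for a gene. The log2(signal + 5) scale understates changes of dim genes.

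Fits used limma 3.58.1 in R 4.3.3 with Benjamini-Hochberg adjustment over all kept probe sets at 0.05. Ethanol was fitted on 8 arrays with stage as a block, leaving 3 residual degrees of freedom, and development on 9 arrays as a slope over 24 hours with ethanol as a term, where a call also needed 2-fold. The fits were run on simulated data with independent noise and no stage effects beyond the changes put in. That run checked that the median estimate lay near the change put in, not that the calls in the real data are right.

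The member, lists and tests were chosen with earlier results of these data known. Genes named were the H2A family above the filter, retina and lens markers for the tissue check, the most similar genes, the next called decrease, and, in the lists other than tissue markers, genes called with ethanol, the 4 of largest absolute ethanol mean and examples of those called with age. Exceptions are stated where they occur. No sequences or coordinates were used here.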

Additional observations from a re-analysis of the deposited data

How the results depend on the processing

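The mean h2ax difference stayed between -1.28 and -1.15 under pseudocounts of 1 and 20, median centring and quantile normalization. Leaving out each stage gave -1.25 to -1.15. The rank of h2ax among probe sets was not recomputed under these settings, so its place as the largest decrease is given for the main setting only. A pseudocount shrinks the decrease of the dimmer gene pdcd2l more than that of h2ax. The order of these 2 genes depends on it. With a pseudocount of 1, the pdcd2l signals given above yield a larger mean decrease than that of h2ax (-1.24). Grouping by the treatment characteristic moved the mean h2ax difference to -0.40, by the construction of that label, which reverses the 36 hpf pair and leaves no 30 hpf pair. The 27 and 48 hpf pairs alone, chosen after seeing the data, gave -1.16. Median centring shifted the 30 hpf difference by -0.14, to -1.56. The h2ax slope was not called under any alternative that was run, and leaving out each stage gave -0.55 to 0.22.

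The number of ethanol calls, 209 in all, was 339 with a pseudocount of 20, 37 with quantile normalization, 67 with no filter and 7 without the stage block. Leaving out each stage gave 4 to 182, of which 14 came without 30 hpf and 4 without 36 hpf. In limma it was 0 by the treatment characteristic (100 at an unadjusted p under 0.05) and 0 on the 27 and 48 hpf pairs (873 at an unadjusted p under 0.05), and the latter fit has fewer arrays. Otherwise the cause was not tested. The split of 151 higher and 58 lower was 150 and 131 with median centring and 19 and 18 with quantile normalization. Development calls, 1531 in all, were 624 with the upper 30% of probe sets, where fewer are tested. List medians kept their sign in 74 of 91 alternatives, and the 4 lists that changed it had medians within 0.05 of 0. They included mitosis, which quantile normalization turned to 0.02.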
